A study of Mus musculus with 4 samples.

Results

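The genes described here are those of the major histocompatibility complex (MHC) of the mouse, with the main genes that load peptides onto its products. They were all 23 genes whose only annotated symbol starts with H2-, and 10 named partners, Cd74, Ciita, B2m, Tap1, Tap2, Tapbp, Nlrc5, Psmb8, Psmb9 and Psmb10. These 33 genes were part of 18194 genes with 1 symbol on the array. They fall into 2 classical class I genes, 10 non-classical class I genes, 9 class II genes, 8 genes of class I processing, and the class II partner Cd74 and regulator Ciita. The remaining 2 genes, H2-Ke6 (also known as Hsd17b8) and the pseudogene H2-D4, were members by their H2- symbol and were put in no class here. Another 15 probe sets carried several symbols with at least 1 H2- symbol among them, and no gene was named from these.

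Livers of mice aged 10 months were compared in 4 groups, each measured on 1 array hybridised with RNA pooled from 3 to 5 mice. The groups were control diet without DEN, a diet with 0.2% cholic acid (CA) without DEN, DEN followed by control diet, and DEN followed by CA diet. DEN is diethylnitrosamine, a carcinogen that starts liver tumours, and cholic acid is a primary bile acid. The labels name neither strain nor sex nor the dose of DEN, and the tumour content of the pools was not analysed here. With 1 array per group there is no replicate error and no test, so that every difference below is one between 2 pools and animals within a pool cannot be told apart.

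Class I molecules sit on nearly all cells with a nucleus, bind B2m and show peptides that the proteasome cuts and the transporter Tap1-Tap2 carries into the endoplasmic reticulum. Class II molecules are found mainly on dendritic cells, B cells and macrophages, where Cd74 guards the groove until H2-DM exchanges its peptide. Interferon gamma is known to raise both sets, through Nlrc5 for class I and Ciita for class II. Most of these genes lie in 1 cluster, and 28 of the 33 were placed on chromosome 17 by RefSeq.

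Values are log2 expression values, and 1 unit is a 2-fold difference. Levels under 4.855, the median over 45101 probe sets of their mean over the arrays, were treated as near background and raised to 4.855 before genes were counted as at least 2-fold different. Other differences are given between the deposited levels. Of the 33 genes, 26 reached this limit on all 4 arrays and 5 (H2-Ob, H2-Q2, H2-T24, H2-M9 and H2-D4) on none. The medians of the arrays lay between 4.843 and 4.865. Differences of the 18 hybridization control probe sets, the only technical reference, reached at most 0.305 for the diets without DEN, 0.203 for DEN on control diet, 0.267 for the diets after DEN, 0.370 for DEN on CA diet and 0.184 for both treatments against neither. Hepatocyte markers, which check the labelled tissue, had median levels from 13.60 to 13.87 over 9 measured genes. Levels of different genes are not compared, since each probe set has its own brightness.

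Among the genes above the limit, those with the largest differences between the DEN pools and the pools without DEN were 3 class II chains and Cd74. On control diet, 4 of 33 genes were at least 2-fold higher with DEN, against 3.07% of all 18194 genes, and 0 were at least 2-fold lower, against 0.561%. On CA diet the same 4 genes, H2-Aa, H2-Ab1, H2-Eb1 and Cd74, were at least 2-fold higher with DEN, against 2.95% of all genes, and again 0 were lower, against 1.08%. The 2 comparisons share no array. The median difference over all genes was 0.00 in each of them with low levels raised.

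H2-Aa, the alpha chain of the class II molecule I-A, had levels of 8.36 on control diet, 8.88 on CA diet, 10.40 with DEN on control diet and 10.40 with DEN on CA diet. Both DEN pools were thus alike and above both pools without DEN, by 2.04 (4.12-fold) on control diet and 1.52 (2.87-fold) on CA diet. H2-Ab1, the beta chain that pairs with it, stood at 6.45, 6.99, 8.52 and 8.42 in the same order. It was 4.18-fold higher with DEN on control diet and 2.71-fold higher on CA diet. H2-Eb1, the beta chain of the other class II molecule I-E, stood at 7.24, 7.60, 8.85 and 8.76. Its DEN differences were 1.60 (3.04-fold) and 1.16 (2.23-fold), smaller than those of both I-A chains on the same diet. Cd74, the invariant chain, stood at 6.42, 6.75, 7.74 and 7.76, which is 2.48-fold higher with DEN on control diet and 2.01-fold higher on CA diet. For all 4 genes both pools with DEN lay above both pools without it.

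**Figure D1:**
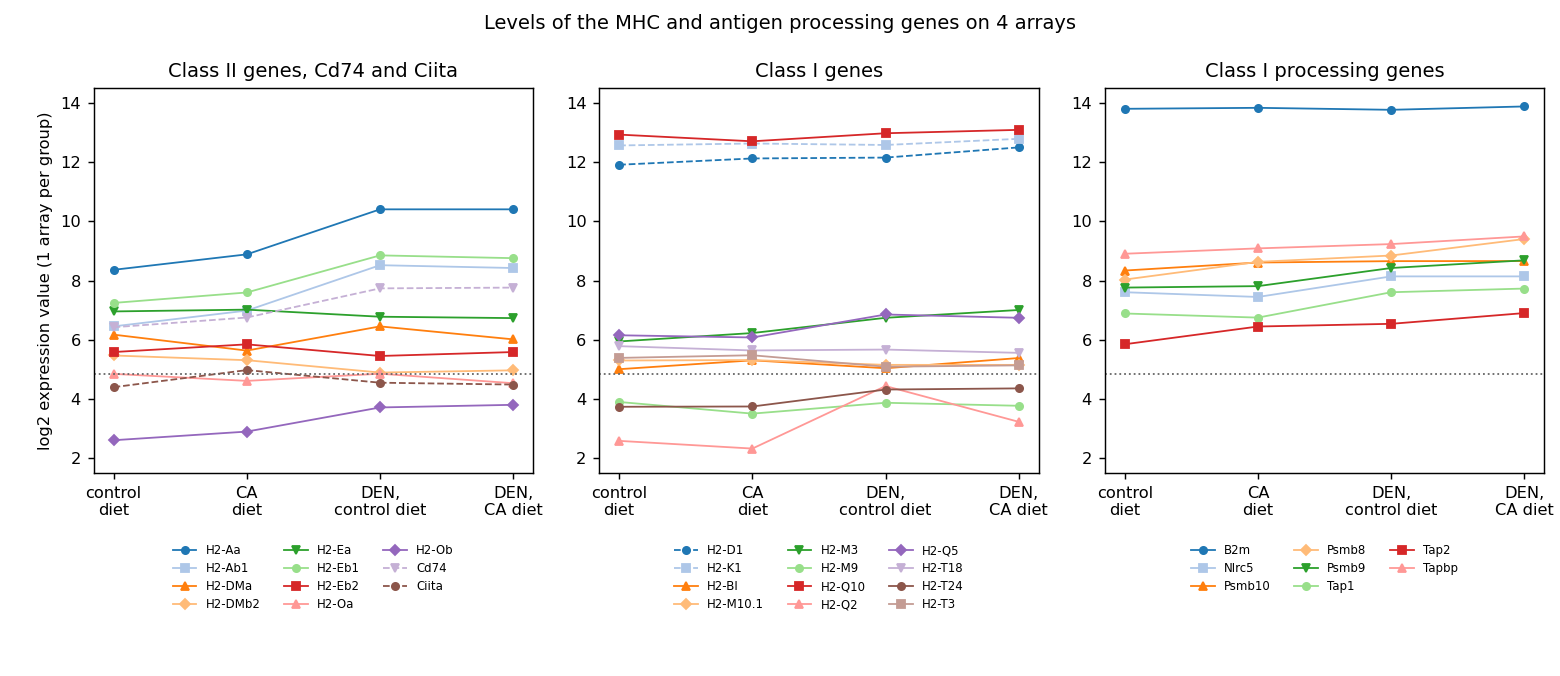
Log2 level of the genes on each of the 4 arrays (1 array of pooled livers per group), for class II genes with Cd74 and Ciita (dashed), class I genes (classical ones dashed) and class I processing genes. Lines only join values of 1 gene, the dotted line is the limit of 4.855, and H2-Ke6 and H2-D4 are not drawn. H2-Aa, H2-Ab1, H2-Eb1 and Cd74 step up between the pools without and with DEN, while H2-K1 and B2m stay within 0.22 and 0.11 of their lowest level.

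These genes were measured by several probe sets, which differed in size and not in direction for the I-A chains. All 4 probe sets of H2-Aa were at least 2-fold higher with DEN on control diet, with differences from 1.60 to 2.28, and from 1.20 to 1.52 on CA diet. All 3 probe sets of H2-Ab1 differed by 1.18 to 2.06 on control diet. On CA diet they differed by 0.96 to 1.44, so that 1 of them stayed just under 2-fold. H2-Eb1 and Cd74 had 1 probe set each. Each of the 4 probe sets of H2-Aa, and the one used for H2-Ab1, has an _x_ or _s_ suffix. The array maker gives these to probe sets that can match several sequences. Signal shared with other genes was not tested for them.

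The other class II genes did not share this step. H2-Ea, the alpha chain of I-E and a transcribed pseudogene in the RefSeq C57BL/6J annotation, stood at 6.96, 7.02, 6.78 and 6.73. H2-Eb2, a further beta chain gene, stood at 5.59, 5.85, 5.45 and 5.59, with differences of -0.13 and -0.26 for DEN on control and CA diet. H2-DMa, a chain of the peptide exchange molecule H2-DM, stood at 6.17, 5.64, 6.45 and 6.02. A second probe set of H2-DMa gave larger DEN differences, 0.78 on control diet and 0.93 on CA diet, against 0.28 and 0.38. H2-DMb2, a beta chain of H2-DM, was lower in both DEN pools (5.47, 5.31, 4.90 and 4.97), while its probe sets under the limit differed by 0.60 and 0.26 the other way on control diet. H2-Oa, a chain of the exchange inhibitor H2-DO, stood at 4.85, 4.61, 4.86 and 4.54, close to the limit. Its partner H2-Ob was under the limit on every array (2.61, 2.90, 3.72 and 3.81), and its deposited difference of 1.11 with DEN on control diet lies within that range.

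Over the 9 class II genes the median DEN difference was 0.00 on both diets with low levels raised, and 3 of the genes were at least 2-fold higher. Over the 5 classical chains it was 1.60 on control diet and 1.16 on CA diet, and over the 4 peptide exchange genes 0.00 on both. The latter follows in part from raising, which sets H2-Ob to 0 and H2-Oa close to it. Between deposited levels the median of the peptide exchange genes was 0.14 on control diet and 0.15 on CA diet. Ciita, the regulator that class II genes need, was close to background on all arrays, with 4.40, 4.98, 4.55 and 4.49. None of its 3 probe sets had a mean at the limit, so no difference can be read for it.

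RefSeq start sites (GRCm38.p6) were matched for 22 of the 33 genes, with 25 windows of 250 bases before the start. No window was matched for Cd74, Ciita, H2-Ab1, H2-Bl, H2-D4, H2-Ea, H2-Q5, H2-T18, H2-T24, Nlrc5 and Tap2. Class II promoters are known for an X box, bound by the RFX factors, followed by a Y box bound by NF-Y. Short cores of both, GCAAC and ATTGG, were searched on both strands, and as a pair on 1 strand with 15 to 45 bases between them. These letters were chosen with the windows in view. The pair was present in 5 of the 8 class II windows, those of H2-Aa, H2-Eb1, H2-Eb2, H2-Oa and H2-Ob, in 0 of the 17 other windows of these genes, and in 1.15% of all 32851 windows. The gap was 28 bases in H2-Aa and H2-Oa, 27 in H2-Eb1 and H2-Eb2 and 25 in H2-Ob. The Y core alone was in 33.8% and the X core alone in 29.9% of all windows.

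The windows of H2-Aa (chr17:34287824-34288073, minus strand), H2-Eb1 (chr17:34305617-34305866, plus strand) and H2-Eb2 (chr17:34325425-34325674, plus strand) are shown because the first and second belong to genes higher in the DEN pools and the third to one that was not. Capitals mark every X and Y core, and the last base is the one before the start.
H2-Aa: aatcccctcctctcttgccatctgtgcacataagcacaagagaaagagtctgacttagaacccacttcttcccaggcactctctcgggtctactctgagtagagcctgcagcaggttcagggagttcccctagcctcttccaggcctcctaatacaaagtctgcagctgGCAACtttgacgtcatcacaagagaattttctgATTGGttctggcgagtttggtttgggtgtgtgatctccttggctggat
H2-Eb1: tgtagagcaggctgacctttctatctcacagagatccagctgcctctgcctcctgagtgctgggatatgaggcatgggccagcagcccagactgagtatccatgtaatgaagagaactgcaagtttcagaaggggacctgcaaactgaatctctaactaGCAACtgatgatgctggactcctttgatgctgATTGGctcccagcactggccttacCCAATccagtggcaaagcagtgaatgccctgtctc
H2-Eb2: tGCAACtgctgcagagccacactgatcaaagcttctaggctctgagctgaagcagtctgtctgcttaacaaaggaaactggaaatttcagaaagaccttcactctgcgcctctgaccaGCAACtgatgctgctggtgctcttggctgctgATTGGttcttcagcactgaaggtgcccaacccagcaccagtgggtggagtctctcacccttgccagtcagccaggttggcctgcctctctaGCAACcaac
The X core began 81 bases before the start in H2-Aa, 91 in H2-Eb1 and 132 in H2-Eb2. A matching pair of cores was thus present in genes with and without the DEN difference.

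Classical class I genes differed little. H2-K1, which presents peptides to CD8 T cells, stood at 12.56, 12.62, 12.57 and 12.78. H2-D1, the other classical gene, stood at 11.91, 12.12, 12.15 and 12.49, with DEN differences of 0.24 on control diet and 0.37 on CA diet. These are near the largest control probe set differences of the same comparisons, 0.203 and 0.370. The median of both genes was 0.13 on control diet and 0.27 on CA diet. The value of H2-D1 depended on its probe set. Among 7 probe sets of H2-D1 with a mean at the limit, the DEN difference on control diet ran from -0.31 to 1.03. The highest came from the 1 of these 7 whose name carries no _x_ suffix, the array maker's mark for probes that match several sequences, with levels of 5.94, 6.32, 6.97 and 7.11. Each of the 4 probe sets of H2-K1 carries that mark, and they ran from -0.11 to 0.24. Class I genes are close in sequence and differ between strains, and neither signal shared between class I genes nor the probe sets' match to the alleles of these mice was tested.

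**Figure D2:**
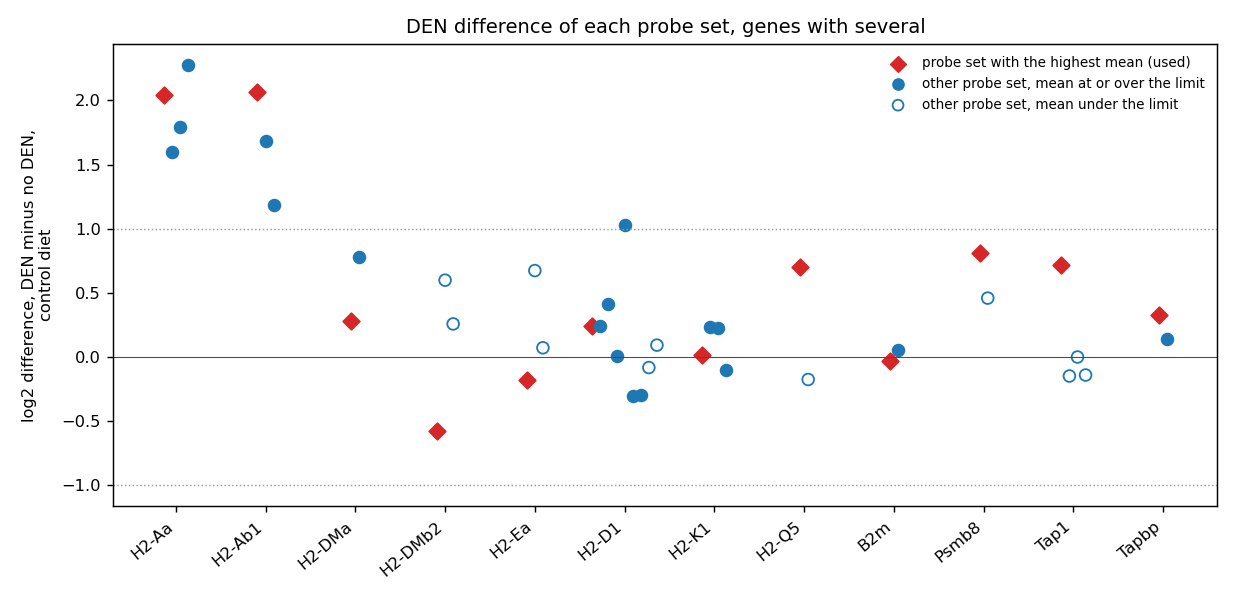
Log2 difference between DEN and no DEN on control diet for each probe set of 12 genes with several (Ciita and H2-T3 are left out); diamonds are the probe sets used, open symbols have a mean under the limit, and dotted lines are 2-fold. Every probe set of H2-Aa and H2-Ab1 lies above 2-fold, those of H2-D1 spread from -0.31 to 1.03, and those of H2-K1 stay near 0.

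The windows before H2-K1 and H2-D1 are shown because both hold the elements that class I promoters are known for, which no class II window held together. The cores searched were GGGATTCCC for NF-kB and GAANNGAAA for the interferon-stimulated response element (ISRE), on both strands. Both were present in the 3 windows of H2-K1 and H2-D1 and in 0.0244% of all windows, the NF-kB core alone in 0.301% and the ISRE core alone in 6.31%. The 0.0244% stands for 8 windows, and these 3 are among them. Since the letters are those of elements known from class I promoters, finding them here is description and no independent evidence. The windows are chr17:34000348-34000597 (minus strand) for 1 of the 2 starts of H2-K1 and chr17:35262844-35263093 (plus strand) for H2-D1. Capitals mark these cores (the ISRE core reads on the other strand) and every X and Y core.
H2-K1: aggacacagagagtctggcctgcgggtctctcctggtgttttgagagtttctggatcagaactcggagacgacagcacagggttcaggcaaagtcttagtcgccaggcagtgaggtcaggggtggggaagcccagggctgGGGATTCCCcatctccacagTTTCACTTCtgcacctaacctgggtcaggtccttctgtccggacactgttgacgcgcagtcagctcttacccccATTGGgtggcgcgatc
H2-D1: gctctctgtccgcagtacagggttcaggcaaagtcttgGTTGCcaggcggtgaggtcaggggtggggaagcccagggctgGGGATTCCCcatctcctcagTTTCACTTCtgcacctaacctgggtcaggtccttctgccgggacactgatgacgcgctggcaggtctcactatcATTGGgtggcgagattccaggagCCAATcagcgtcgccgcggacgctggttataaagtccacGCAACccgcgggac
The NF-kB and ISRE cores lie 110 and 90 bases before this start in H2-K1 and 170 and 150 in H2-D1, so that their spacing is the same. H2-M3 and H2-Q10 held the ISRE core without the NF-kB core.

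Non-classical class I genes were mixed. With DEN, 0 of 10 were at least 2-fold different on either diet. Of all genes 3.07% were higher on control diet and 2.95% on CA diet, and 0.561% and 1.08% lower, so that 0 of 10 lies near these shares. Their median was 0.00 on both diets with low levels raised, which sets 3 of the 10 to 0. Between deposited levels it was 0.04 on control diet and 0.33 on CA diet. H2-M3, which presents formylated bacterial peptides, had the largest DEN difference among those above the limit. It stood at 5.95, 6.23, 6.74 and 7.01, which is 1.74-fold higher with DEN on control diet and 1.71-fold on CA diet. H2-Q5, annotated as a transcribed pseudogene, stood at 6.15, 6.08, 6.85 and 6.74, also with both DEN pools above both others. Its other probe set, under the limit, differed by -0.18 on control diet. H2-Q10, a secreted class I molecule made by the liver, stayed between 12.70 and 13.08. H2-Bl, H2-M10.1, H2-T3 and H2-T18 differed by -0.30 to 0.03 with DEN on control diet. H2-Q2 was listed from 2.33 to 4.44, under the limit throughout, and its deposited difference of 1.85 has no fold. H2-T24 and H2-M9 were also under it on all arrays. Among the genes of no class, the steroid dehydrogenase gene H2-Ke6 stood at 9.58, 9.46, 9.31 and 9.08, and H2-D4 was under the limit.

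Most genes of class I processing had higher levels in the DEN pools, by less than 2-fold on each diet. On control diet 7 of 8 had a higher level with DEN, against 46.7% of all genes, and on CA diet 8 of 8, against 47.8%. Beyond the largest control probe set difference lay 7 of 8 on control diet, against 24.6% of all genes, and 6 of 8 on CA diet, against 14.3%. The medians were 0.60 and 0.57, against 0.00 over all genes. Psmb8, Psmb9 and Psmb10 encode the catalytic subunits that turn the proteasome into the immunoproteasome. Psmb8 stood at 8.03, 8.63, 8.84 and 9.40, in 2 steps, being higher with either treatment and highest with both. Its DEN difference was 1.76-fold on control diet and 1.71-fold on CA diet. Psmb9 stood at 7.76, 7.81, 8.42 and 8.68, with DEN differences of 0.66 and 0.87. Psmb10 stood at 8.34, 8.61, 8.65 and 8.66, with DEN differences of 0.32 and 0.05.

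The peptide transporter genes followed the DEN pools as well. Tap1 stood at 6.89, 6.75, 7.61 and 7.73, so that it was 1.64-fold higher on control diet and 1.97-fold on CA diet, just short of 2-fold. Its 3 other probe sets were under the limit and differed by -0.15 to 0.00 on control diet. Tap2 stood at 5.85, 6.45, 6.54 and 6.90, with DEN differences of 0.69 and 0.45. Tapbp, tapasin, which holds class I to the transporter, differed by 0.33 and 0.40 (8.90, 9.09, 9.23 and 9.49). Its other probe set, also with a mean above the limit, differed by 0.14 and 0.13. These lie within the largest control probe set differences of 0.203 and 0.370. Nlrc5, the class I counterpart of Ciita, stood at 7.61, 7.45, 8.14 and 8.14, 1.45-fold and 1.62-fold higher. B2m, the light chain of all class I molecules, stood at 13.79, 13.83, 13.76 and 13.87.

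Psmb9, Tap1, Psmb8 and Tap2 are neighbours in this order inside the class II region, and Psmb9 and Tap1 start on opposite strands with 225 bases between their starts. This stretch (chr17:34187331-34187555, plus strand, GRCm38.p6) is shown because it precedes both genes, which were higher in both DEN pools. Capitals mark the X and Y cores, which are not a pair on 1 strand. Psmb9 is read to the left of it and Tap1 to the right.
Psmb9-Tap1: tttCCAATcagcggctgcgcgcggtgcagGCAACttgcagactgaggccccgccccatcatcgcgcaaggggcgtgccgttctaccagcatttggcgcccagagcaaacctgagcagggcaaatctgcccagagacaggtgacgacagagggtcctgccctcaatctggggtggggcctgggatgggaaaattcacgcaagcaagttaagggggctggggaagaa
The stretch held neither the ISRE nor the NF-kB core as searched, which says only that these letters are absent from it.

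**Figure D3:**
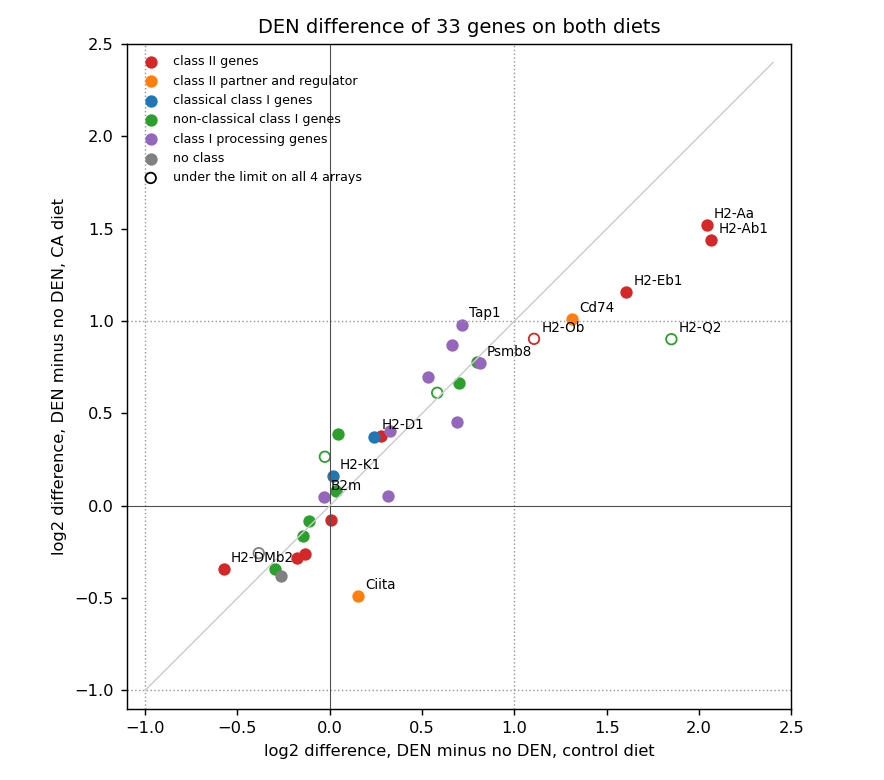
Log2 difference between DEN and no DEN on control diet (x) and on CA diet (y) for the 33 genes, 1 point per gene coloured by class; open points were under the limit on all arrays, dotted lines are 2-fold and the diagonal marks equal differences. H2-Aa, H2-Ab1, H2-Eb1 and Cd74 lie past 2-fold on both axes and below the diagonal, and Tap1 lies above it.

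The CA diet alone went with smaller differences. Without DEN, 0 of 33 genes were at least 2-fold higher, against 0.346% of all genes, and 0 lower, against 0.357%. The 28 genes that reached the limit on any array differed from -0.54 (H2-DMa) to 0.60 (Tap2), with a median of 0.08. Among genes with a mean at the limit, Tap2, Psmb8, H2-Ab1 and H2-Aa were highest in this comparison, at 0.60, 0.60, 0.53 and 0.52, beyond the control probe set difference of 0.305. Cd74 differed by 0.33 and H2-Eb1 by 0.35. All 5 classical class II chains were higher on CA diet, against 50.5% of all genes, with a median of 0.35. H2-Ea (0.06) and H2-Eb2 (0.26) lay within the control probe set difference of 0.305. H2-DMa was lower on CA diet by its brighter probe set and by -0.04 on the other.

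After DEN, 0 of 33 genes were at least 2-fold higher on CA diet, against 0.203% of all genes, and 0 lower, against 0.286%. The 5 classical class II chains and Cd74 differed by less than the largest control probe set difference of 0.267 here. H2-Aa was at 0.00, H2-Ab1 at -0.10, H2-Eb1 at -0.09 and Cd74 at 0.03. Of the peptide exchange genes, H2-DMa differed by -0.44, and by 0.10 on its other probe set. H2-Oa, close to the limit, differed by -0.32. Psmb8 was higher on CA diet in both settings, by 0.60 without DEN and 0.56 after it, and Tap2 by 0.60 and 0.36. H2-D1 differed by 0.21 and 0.34, and H2-M3 by 0.28 and 0.26. Of these only the 0.34 of H2-D1 exceeded the largest control probe set difference of its comparison (0.305 without DEN, 0.267 after it). Probe sets of H2-D1 with a mean at the limit ran from -0.21 to 0.38 without DEN and from -0.01 to 0.34 after it. The diet effect after DEN minus that without DEN was -0.52 for H2-Aa, -0.63 for H2-Ab1, -0.45 for H2-Eb1 and -0.30 for Cd74. For Psmb8 this value was -0.04. Over the 26 genes with a mean at the limit it ran from -0.63 (H2-Ab1) to 0.34 (H2-Q10), and 0 of them reached 2-fold.

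**Figure D4:**
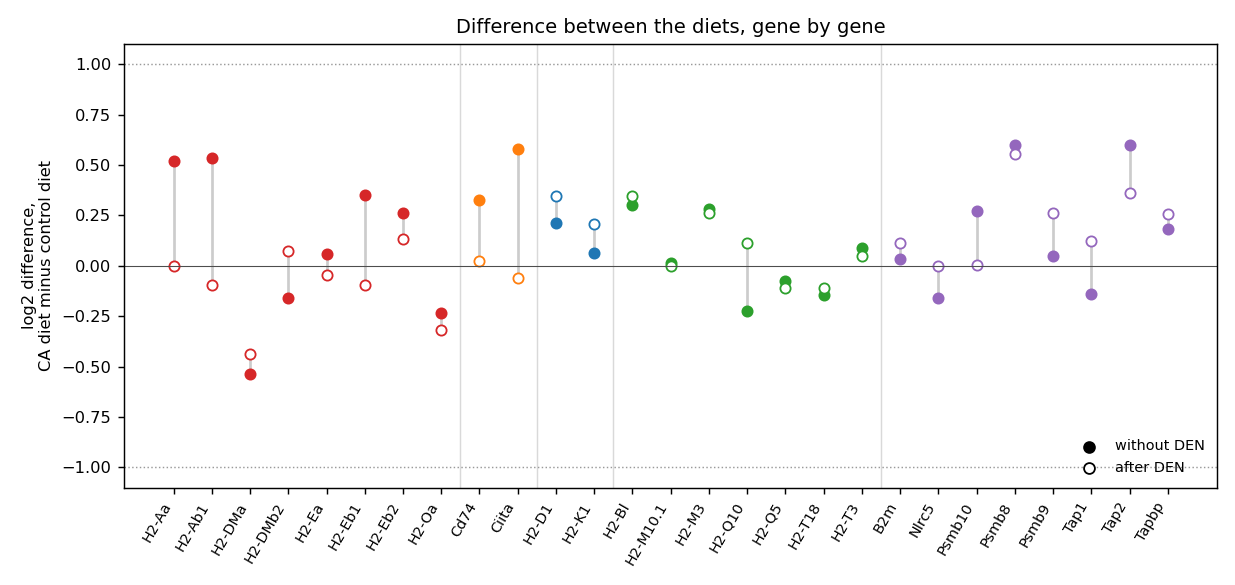
Log2 difference between CA and control diet for each gene above the limit on any array, without DEN (filled) and after DEN (open), grouped from left to right as class II, Cd74 and Ciita, classical class I, non-classical class I and processing genes. The class II chains H2-Aa, H2-Ab1 and H2-Eb1 lie above 0 without DEN (0.35 to 0.53) and at -0.10 to 0.00 after it, while Psmb8 is near 0.6 in both.

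With both treatments against neither, 7 of 33 genes were at least 2-fold higher, against 3.64% of all genes, and 0 lower, against 1.39%. Psmb8 (2.58-fold), H2-M3 (2.09-fold) and Tap2 (2.07-fold) joined H2-Aa (4.12-fold), H2-Ab1 (3.92-fold), H2-Eb1 (2.85-fold) and Cd74 (2.53-fold). Psmb9 followed at 1.89-fold, Tap1 at 1.79-fold, and H2-D1 differed by 0.59. The medians were 0.40 for classical class I, 0.71 for class I processing and 0.00 for both the class II and the non-classical genes. This comparison shares its arrays with the others.

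Further genes of the same pathways were measured. Of 12 measured further class I pathway genes, 0 were at least 2-fold different in any of the 5 comparisons, with medians between -0.03 and 0.08. The standard proteasome subunits Psmb5, Psmb6 and Psmb7, which Psmb8 to Psmb10 replace and which were singled out after their values were seen, differed by 0.23, 0.02 and 0.06 with DEN on control diet. Pdia3, a chaperone of class I loading, differed by 0.51 with DEN on control diet, by 0.08 with DEN on CA diet and by 0.45 on CA diet without DEN. Irf2 had the largest absolute DEN difference of these 12 genes on both diets, -0.56 on control diet and -0.86 on CA diet. Among 10 further class II pathway genes, 2 were at least 2-fold higher with DEN on control diet and 1 on CA diet, against 3.07% and 2.95% of all genes. On either diet 0 were lower, against 0.561% and 1.08%. Ctss, cathepsin S, which trims Cd74, was at 9.16, 9.90, 10.37 and 10.79, and the lysosomal protease gene Lgmn at 7.73, 7.98, 9.05 and 9.34. The RFX genes Rfx5, Rfxap and Rfxank differed by 0.33, 0.17 and 0.35 with DEN on control diet. On CA diet they differed by 0.46, -0.10 and 0.20. The median DEN difference of these 10 class II pathway genes was 0.34 on control diet and 0.48 on CA diet. They ran from 0.01 to 1.32 and from -0.10 to 1.36. Of the 7 class I-like genes outside the MHC, 0 reached 2-fold, and Cd1d1, which presents lipids to NKT cells, was -0.62 lower with DEN on control diet.

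Of 17 measured genes of the interferon gamma pathway, 6 were at least 2-fold higher with DEN on control diet, against 3.07% of all genes. With DEN on CA diet 5 were higher, against 2.95%, and on CA diet without DEN 1, against 0.346%. In these comparisons 0 were lower, against 0.561%, 1.08% and 0.357% of all genes. The medians were 0.64, 0.82 and 0.27. The chemokine gene Cxcl9 was at 6.62, 7.59, 9.60 and 9.85, and the receptor gene Ifngr1 at 6.92, 7.19, 8.32 and 8.34. Other genes of the list differed less, such as Jak2 at 7.75, 8.01, 7.90 and 8.06. Between deposited levels the DEN differences of the 17 genes ran from -0.05 to 2.98 on control diet and from -0.21 to 2.26 on CA diet. Ifng itself was under the limit on all arrays, between 2.16 and 2.59. The pathway's part in the differences of the MHC genes was not tested.

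Markers of macrophages, dendritic cells, B cells, liver endothelial cells and T cells differed between the groups to different degrees, and those of dendritic cells little. A higher level in a pool can come from more cells of a type or from more RNA per cell, and these cannot be told apart here. Of 13 macrophage and Kupffer cell markers, 2 were at least 2-fold higher with DEN on control diet (Mpeg1 by 1.89 and Cd68 by 1.35), and their summed level, on the linear scale, was 4128 on control diet, 6204 on CA diet, 7301 with DEN and 9905 with both. Such a sum is weighted to bright probe sets, and without Mpeg1 it was 3509.9, 5355, 5010.5 and 7362. The median marker level was 7.9999, 8.4152, 7.9964 and 8.5321, the median of the DEN differences on control diet was 0.63, and Cd163 differed by -0.67. The Kupffer cell genes Clec4f and Timd4 differed by -0.0035 and 0.0020 with DEN on control diet. On CA diet 2 of the 13 were at least 2-fold higher and 1 lower with DEN, and 1 was higher on CA diet without DEN. Of 9 dendritic cell markers 0 reached 2-fold, with summed levels of 280, 282, 286 and 305, and Xcr1, Ccr7, Itgae and Siglech were under the limit on all arrays. Of 8 B cell markers 1 was at least 2-fold higher with DEN, Blnk, with summed levels of 208, 228, 300.2 and 320.4, and of 178, 178, 189.7 and 198 without Blnk, while Ms4a1, Cd79a, Cr2 and Fcrla were under the limit on all arrays. Liver endothelial markers summed to 1385, 1452, 1713 and 2008, with 1 of 7 at least 2-fold higher with DEN on each diet. T cell markers summed to 257, 254, 281 and 294, and 0 of 9 reached 2-fold with low levels raised. Of these 9, 4 were under the limit on all arrays. Cd3g went from 4.19 to 5.31 with DEN on control diet, a deposited difference of 1.11. Between deposited levels of this comparison 6 of the 9 were higher and 3 lower, with a median of 0.19. The part of these cells in the class II differences was not tested.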

How the data were processed

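Log2 expression values of 4 mouse liver arrays, 1 per group, were analysed. The submitters' processing notes name RMA and Partek 6.5 for the deposited log2 values, with no options. RMA draws the distributions of arrays together, so that a shift of most genes would be removed. RNA was extracted with Trizol and labelled with the FlashTag Biotin HSR kit, per the labels' protocols. That kit is known for labelling small RNA, and how its use bears on these mRNA levels was not tested.

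Gene symbols came from the platform annotation. Of 45101 probe sets 34958 had 1 symbol, 932 several and 9211 none. The 64 probe sets of the 33 genes all matched RefSeq by gene identifier, with 0 symbols changed. Where a gene had several probe sets, the brightest on average stood for it. Levels under 4.855 were raised to it before 2-fold counts and medians. All measured members of each class were described, with all 4 levels for those at least 2-fold different and for the classical, class II and processing genes. Of each further list a few genes were described. Genes, lists and alternatives were chosen with earlier results of these data known. No test was made, since each group has 1 array. Steps were tested on simulated data. Python 3.11.15 and pandas 2.3.3 were used. Cell marker lists for monocytes, NK cells, neutrophils and cholangiocytes are given in the closing section.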

Additional observations from a re-analysis of the deposited data

How the results depend on the processing

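Alternatives were levels not raised, genes with a mean at the limit only, the mean over probe sets, no _x_at probe sets, quantile normalization, arrays centred on their median, and a 1.5-fold threshold. Under the first 6 settings H2-Aa, H2-Ab1 and H2-Eb1 kept at least 2-fold with DEN on both diets (lowest 1.08, H2-Eb1 on CA diet). Cd74 on CA diet (0.93), and H2-M3 (0.94) and Tap2 (0.93) with both treatments, fell under 2-fold with centring, and also with quantile normalization. Centring moved the median over genes at the limit from 0.035 to -0.127 for DEN on control diet and from 0.012 to -0.107 for both treatments. It changed the counts over all genes from 559 higher and 102 lower to 425 and 186 with DEN on control diet, and from 663 and 253 to 566 and 342 with both treatments. The mean over probe sets gave 363 higher with DEN on control diet, and 41 against 63 on CA diet without DEN. At 1.5-fold the genes higher were 2 for CA diet without DEN (1.36% of all genes), 10 for DEN on either diet (7.01% and 6.63%) and 12 for both treatments (7.67%). With levels not raised, 6 genes in place of 4 were higher with DEN on control diet and 8 in place of 7 with both treatments (H2-Ob, and on control diet H2-Q2, both under the limit), 1 gene (H2-Q2) was lower on CA diet after DEN, and the class II median was 0.28 with DEN on control diet and 0.38 on CA diet, as it was over genes with a mean at the limit; the non-classical median with both treatments was 0.27. Without _x_at probe sets classical class I rested on H2-D1 alone, at 1.03 with DEN on control diet, 0.79 on CA diet and 1.17 with both. The processing median with both treatments was 0.43 with the mean over probe sets. No group has a second array, so leaving out a replicate could not be tried.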

Other observations

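The 15 probe sets annotated with several symbols, at least 1 of them an H2- symbol, gave no gene its value here. With DEN 2 of the 15 were at least 2-fold higher on control diet and 3 on CA diet, against 3.07% and 2.95% of all genes with 1 symbol. On either diet 0 were lower, against 0.561% and 1.08% of these genes. The median DEN difference of the 15 probe sets was 0.44 on control diet, with a range from -0.29 to 1.32, and 0.36 on CA diet. On CA diet without DEN they differed from -0.30 to 0.53.

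Further cell markers were measured beside the class II genes. With DEN on control diet, 2 of 5 monocyte markers and 2 of 6 neutrophil markers were at least 2-fold higher. Of 6 NK cell markers 0 reached 2-fold with low levels raised, and Ncr1, Prf1 and Eomes were under the limit on all arrays. Klrd1, Gzma and Nkg7 were under the limit without DEN, and their deposited differences were 1.86, 1.07 and 0.98. Between deposited levels 4 of the 6 were higher and 2 lower, with a median of 0.58. Of 5 cholangiocyte markers 1 reached it.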
